A study of Mus musculus with 20 samples.

Results

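Transcripts of NeuN-positive spinal cord nuclei were compared between EAE and healthy mice, which addresses how neurons differ in the acute disease. The comparison rests on the 5 libraries labelled EAE and the 5 labelled healthy of that sort, 10 of the 20 libraries of the series, and takes in every gene of the count table. EAE (experimental autoimmune encephalomyelitis) models multiple sclerosis by turning the immune system of a mouse against its own brain and spinal cord. The EAE tissue was taken at day 15 after active immunization of mice. Both groups are spinal cord nuclei sorted on NeuN and sequenced as polyadenylated RNA. The labels give day 15 to the EAE libraries and no day to the healthy ones. Any effect of immunization or of the time after it therefore cannot be told apart from that of the disease. The labels name no other difference between the groups. Not given in the sources used here are the immunogen and the strain, sex and age of the mice. No label says that the numbered libraries of a group come from separate mice, so p-values measure the spread between these libraries.

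NeuN is the nuclear RNA-binding protein encoded by Rbfox3 and marks most mature neurons. In EAE, T cells and monocytes enter the spinal cord and release interferons, which act through STAT and IRF transcription factors. Cells that respond induce the immunoproteasome, whose subunits replace catalytic subunits of the standard proteasome, and the MHC class I pathway that shows peptides to CD8 T cells. Neurons hold little MHC class I at rest. Their working programmes rest on voltage-gated channels, vesicle release, peptide and amine transmitters, and the transcription factors that set dorsal, ventral and segmental identity.

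The sort label was checked first. Rbfox3 was at 351, 335, 305, 313 and 263 CPM (read counts scaled to a common library size, with TMM, an edgeR correction for library composition) in healthy libraries 1 to 5 and at 186, 116, 264, 238 and 165 CPM in EAE libraries 1 to 5, against 19.7 to 56.3 CPM in the EAE NeuN-negative nuclei. All 10 NeuN-positive libraries therefore lay above that sort, and EAE 3 alone reached into the healthy range. Its log2 fold change between EAE and healthy was -0.62 ± 0.22 (SE) and did not pass the test (edgeR adjusted p = 0.0918). Snhg11, a neuronal long noncoding RNA, was at 21933, 18953, 17459, 18132 and 19609 CPM in healthy and 24074, 15199, 20654, 24131 and 24155 CPM in EAE libraries, and the groups overlapped. None of the 20 pan-neuronal genes tested was called in either direction, and their median log2 fold change was 0.17.

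Library totals ran from 12076860 to 30499828 counts in healthy and from 7072200 to 18686997 counts in EAE. Mitochondrially encoded transcripts took 0.197, 0.213, 3.003, 0.833 and 0.302% of counts in healthy libraries 1 to 5 and 1.08, 9.35, 1.22, 5.301 and 1.13% in EAE libraries 1 to 5. EAE 2, EAE 4 and healthy 3 stood apart in this share, and in the same libraries the myelin gene Mbp took 5.12, 2.35 and 2.58% of counts, against 0.185 to 0.7499% in the other 7. Each result below that is led by a count was also computed without these 3 libraries. EAE 3 stood apart in another way: it was the EAE library with the highest level for 553 of the 613 genes called lower, but for 4201 of the 16675 genes tested. EAE 2 held that place for 644 of the 1092 genes called higher and for 4504 of those tested.

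Among 16675 genes tested, 1092 were higher in EAE (6.55%) and 613 lower (3.68%) at an adjusted p under 0.05 in edgeR's quasi-likelihood test with Benjamini-Hochberg adjustment. Without EAE 2, EAE 4 and healthy 3, 1249 of 17315 genes were higher (7.21%) and 317 lower (1.83%). The lower count moved by over 1.5 times without any single library but healthy 5. It was 201, 364, 1462, 302 and 178 without EAE 1 to 5 in turn and 245, 201, 998 and 284 without healthy 1 to 4. The higher count moved as far without EAE 3 (1662), healthy 2 (677) or healthy 3 (1721). With the mitochondrially encoded share as a covariate, 528 genes were higher and 166 lower. Whichever single library was left out, 627 of the genes called higher and 147 of those called lower were still called in the same direction. The transcripts of genes called lower had a median GC content of 55.2%, against 49.8% over all genes tested and 50.1% for genes called higher. After each library's trend with GC was removed, 1215 genes were higher and 567 lower.

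The 10 largest rises were taken among genes at a mean log2 CPM of at least 2 whose groups did not overlap. They included Cxcl9, an interferon-induced chemokine (8.13 ± 0.91 on the log2 scale), and Il1rn, the interleukin-1 receptor antagonist (7.99 ± 0.67). Saa3, an acute-phase protein (7.97 ± 0.94), and Chil3, a macrophage chitinase-like protein (7.53 ± 1.1), were also among them. The mean healthy levels of these 4 genes were 0.14, 0.024, 0.36 and 0.92 CPM, so the sizes of their rises are uncertain. Among the 10 largest falls chosen in the same way were Doc2a, a calcium sensor of vesicle release (-2.96 ± 0.45), the zinc finger gene Zfp335 (-2.52 ± 0.49), Rell2 (-2.44 ± 0.42), Tmem132a (-2.38 ± 0.49), Atg9a, an autophagy membrane protein (-2.35 ± 0.46), and Slc7a10, an astrocyte amino acid transporter (-2.29 ± 0.39). The list also held Grin1os (-2.59 ± 0.48), which lies antisense to Grin1, so that without known use of strand its value may hold reads of that gene.

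Summed markers of microglia, monocytes, neutrophils and T cells and of fibroblasts and pericytes were higher in EAE in this sort, and those of the other cell types did not pass the test. The summed level of 15 microglia markers was 43.2, 37.01, 88.2, 76.8 and 46.99 CPM in healthy libraries 1 to 5 and 432, 649.7, 563, 362 and 344 CPM in EAE libraries 1 to 5. For the 20 monocyte and macrophage markers the sums were 18.3, 16.02, 30.8, 44.7 and 11.97 CPM in healthy and 531, 2148, 1291, 596 and 452 CPM in EAE. Neither pair of groups overlapped, and EAE 2 held the highest sum of both lists. The EAE NeuN-negative libraries held 993 to 3398 CPM of microglia and 1112 to 3689 CPM of monocyte markers. Of 15 library measures compared by exact permutation tests (two-sided, with p = 0.00794 the smallest they can give), 6 had that p and an adjusted p of 0.0198. These were the summed microglia, monocyte, neutrophil, T cell and fibroblast markers and the ribosomal protein share of counts. The other 9 had an adjusted p of 0.104 to 0.937 in these exact permutation tests. They were the summed oligodendrocyte, oligodendrocyte precursor, astrocyte, Schwann cell, ependymal, endothelial and B cell markers, the mitochondrially encoded share and the number of genes with a count. In a bulk sample, fewer cells of a type and less RNA per cell cannot be told apart.

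**Figure D1:**
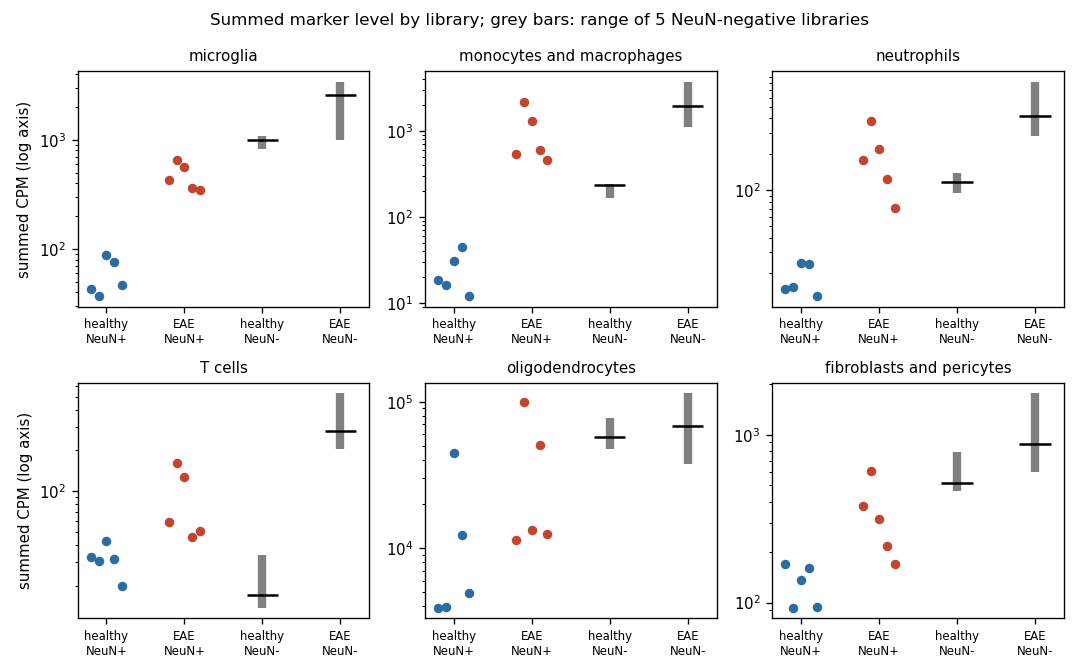
Summed CPM (log axis) of 6 cell type marker lists in each healthy (blue) and EAE (red) NeuN-positive library, in replicate order, with the range (grey bar) and median (black line) of 5 NeuN-negative libraries of each condition. Every EAE library lies above every healthy one for microglia, monocytes, neutrophils, T cells and for fibroblasts and pericytes, while oligodendrocyte sums are highest in EAE 2 and EAE 4 among EAE and in healthy 3 among healthy libraries.

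By gene, those called higher were 18 of 19 monocyte markers tested, 8 of 9 neutrophil, 8 of 14 microglia and 8 of 12 T cell markers, and none was lower. Over all genes tested, 6.55% were called higher. Markers that passed the count filter through EAE alone had to be higher, and 12 of 20 T cell genes passed it, so these counts are a description. Lyz2, lysozyme of myeloid cells, was at 3.85, 4.16, 5.37, 15.5 and 2.702 CPM in healthy and 236, 1303, 662, 219 and 184 CPM in EAE libraries (log2 fold change 6.49 ± 0.75, edgeR adjusted p = 0.000119). Ccr2, the receptor that draws monocytes into tissue, was at 0.04997, 0, 0.597, 0.548 and 0.105 CPM in healthy and 8.13, 9.19, 10.8, 7.496 and 13.3 CPM in EAE, so that each EAE library lay above every healthy one. Cd3e, of the T cell receptor complex, was at 0.04997, 0.06499, 0.895, 0.137 and 0.0351 CPM in healthy and 1.43, 2.85, 4.13, 2.02 and 1.51 CPM in EAE libraries, again with no overlap. Among defining markers, Cd3g was at 0 in EAE 4, the T cell receptor gene Trac and the B cell gene Ms4a1 in EAE 2, and Cd79a of B cells in EAE 4. The B cell sum was 231 to 355 CPM in healthy and 144 to 322 CPM in EAE, of which Ighm alone held a mean of 311 and 214 CPM.

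Among microglia markers the rise was uneven. C1qc, a complement subunit, was at 2.798, 1.88, 3.38, 5.14 and 2.597 CPM in healthy and 63.9, 87.97, 80.99, 35.03 and 54.1 CPM in EAE libraries (log2 fold change 4.45 ± 0.36, edgeR adjusted p = 9.96e-06). Tmem119, a homeostatic microglial gene, was at 1.999, 1.56, 2.98, 2.67 and 1.37 CPM in healthy and 12.8, 12.8, 11.3, 7.64 and 8.605 CPM in EAE libraries, with no overlap. P2ry12, the microglial purine receptor, was at 0.899, 0.617, 0.696, 2.33 and 1.19 CPM in healthy and 1.57, 4.76, 1.69, 4.04 and 3.61 CPM in EAE libraries and did not pass the test (log2 fold change 1.54 ± 0.56, edgeR adjusted p = 0.0929). Its level in EAE NeuN-negative nuclei was 10.03 to 32.99 CPM. Oligodendrocyte markers were called higher for 5 of 19 genes, fibroblast and pericyte markers for 6 of 13 and astrocyte markers for 2 of 16, with 2 astrocyte genes lower. The higher shares of 26.3, 46.2 and 12.5% stand beside 6.55% of all genes.

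Most genes of the MHC class I pathway and the 3 inducible immunoproteasome subunits were higher in EAE. H2-K1 (ENSMUSG00000061232, chr17:33996017-34000347 in GENCODE M21 on GRCm38, as are the other gene positions here), a classical MHC class I heavy chain, was at 18.4, 11.7, 11.3, 20.5 and 10.7 CPM in healthy libraries 1 to 5 and 445, 390.4, 913, 395 and 423 CPM in EAE libraries 1 to 5. EAE 3 was the highest and the groups did not overlap, with a log2 fold change of 5.22 ± 0.34 (edgeR adjusted p = 5.15e-06). Reads of the class I genes can be split between near-identical copies, so their values are uncertain. B2m, the shared light chain of class I molecules, was at 20.8, 14.98, 21.3, 33.99 and 22.8 CPM in healthy and 272, 664, 309, 359 and 286 CPM in EAE libraries, with EAE 2 highest (log2 fold change 4.16 ± 0.35, edgeR adjusted p = 1.15e-05). Tap1, a subunit of the transporter that carries peptides into the endoplasmic reticulum, rose from 7.75, 6.499, 14.6, 12.8 and 6.21 CPM in healthy to 133, 155, 279.9, 247 and 160.1 CPM in EAE libraries (log2 fold change 4.42 ± 0.35, edgeR adjusted p = 9.96e-06). Of 19 class I pathway genes tested, 14 were higher (73.7%, beside 6.55% of all genes) and none lower. Their median log2 fold change was 2.27, against -0.03 over all genes tested. The 5 not called were the chaperone genes Calr, Canx and Pdia3, which serve many other proteins, and the nonclassical genes H2-T24 and H2-M3.

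Psmb9 (ENSMUSG00000096727, chr17:34181987-34187764), an inducible catalytic subunit of the immunoproteasome, was at 0.849, 0.617, 1.19, 1.23 and 0.632 CPM in healthy and 18.6, 26.5, 39.2, 37.6 and 20.5 CPM in EAE libraries. The groups did not overlap (log2 fold change 5.09 ± 0.38, edgeR adjusted p = 6.63e-06). Psmb8, another inducible subunit beside Tap1 and Psmb9 in the MHC region, was at 2.099, 1.88, 2.19, 4.73 and 1.44 CPM in healthy and 33.3, 77.03, 71.9, 56.8 and 30.6 CPM in EAE (log2 fold change 4.55 ± 0.42, edgeR adjusted p = 2.19e-05). Psmb10, the inducible subunit encoded elsewhere, had a higher healthy level, 28.8, 27.7, 52.9, 39.8 and 16.6 CPM, and reached 83.7, 158, 85.8, 153 and 95.1 CPM in EAE (log2 fold change 1.88 ± 0.34, edgeR adjusted p = 0.00287). The regulator genes Psme1 and Psme2, which encode the proteasome activator, completed the list of 5 and were not called. Of 53 interferon-stimulated genes tested 47 were higher (88.7%, beside 6.55% of all genes) and none lower, with a median of 3.07. Without the 3 libraries the count was 50 of 53. Of the 55 genes of the list 53 passed the count filter, and any that passed it through EAE alone had to be higher. These counts and the median are therefore a description. Igtp and Irgm2, immunity-related GTPases whose annotated spans overlap on the same strand, rose by 5.44 ± 0.47 and 5.3 ± 0.43 on the log2 scale. This overlap and near-identical stretches of these genes make the values uncertain, and they are not separate measurements.

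**Figure D2:**
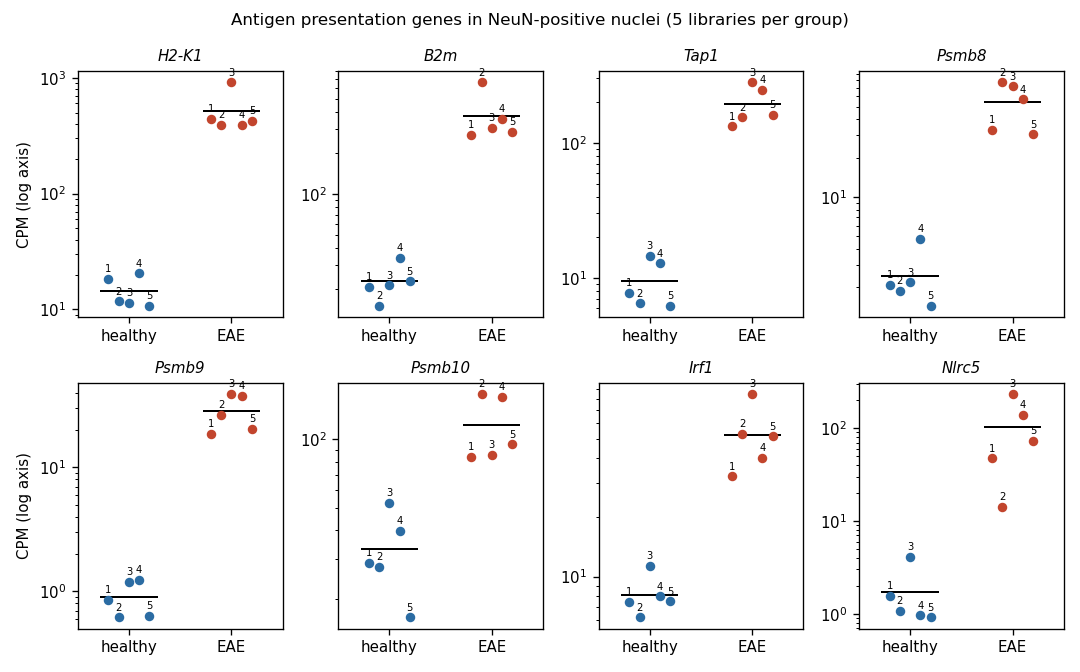
CPM (log axis) of 8 antigen presentation genes and their regulators in each healthy (blue) and EAE (red) NeuN-positive library, numbered by replicate, with group means as black lines. For all 8 genes every EAE library lies above every healthy one.

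The upstream sequence of some of the genes that rose is shown with the motifs of the interferon pathway. The 250 bases before each RefSeq start (GRCm38.p6) were searched on both strands for the interferon-stimulated response element, GAAA and again GAAA with NN between them, for the gamma-activated site bound by STAT dimers, TTCNNNGAA, and for the cAMP response element, TGACGTCA. The first motif was found before 20 of 43 matched interferon-stimulated genes (46.5%), against 3.46% of all 27025 genes in the RefSeq table and 3.05% of the genes tested, and before 9.23% of genes called higher and 1.81% of genes called lower. For the gamma-activated site the shares were 27.9% of the interferon-stimulated genes, 8.13% of all genes, 7.19% of the genes tested, 10.2% of those called higher and 8.13% of those called lower. Of matched MHC class I pathway genes, 3 of 15 (20%) held the response element and 1 of 15 (6.67%) the gamma-activated site, and of the immunoproteasome genes 0 of 5 and 1 of 5. The stretches printed next end at the base before the start, with matches to any of the 3 motifs in capitals. They are shown for genes that rose and, last, for the neuropeptide gene Sst, which fell.
Igtp, chr11:58199446-58199555, plus strand: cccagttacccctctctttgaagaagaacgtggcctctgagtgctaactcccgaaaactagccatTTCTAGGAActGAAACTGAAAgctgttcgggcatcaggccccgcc
Irgm2, chr11:58214867-58214976, plus strand: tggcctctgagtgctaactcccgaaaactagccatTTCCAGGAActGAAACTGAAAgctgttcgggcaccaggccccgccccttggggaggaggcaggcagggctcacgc
B2m, chr2:122147538-122147686, plus strand: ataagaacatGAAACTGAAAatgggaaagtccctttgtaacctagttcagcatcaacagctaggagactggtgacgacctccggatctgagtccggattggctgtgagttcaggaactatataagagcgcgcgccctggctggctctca
Irf1 (the first of its RefSeq starts), chr11:53769904-53770013, plus strand: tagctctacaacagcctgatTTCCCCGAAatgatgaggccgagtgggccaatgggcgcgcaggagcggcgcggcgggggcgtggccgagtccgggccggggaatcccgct
Psmb8, chr17:34198085-34198194, plus strand: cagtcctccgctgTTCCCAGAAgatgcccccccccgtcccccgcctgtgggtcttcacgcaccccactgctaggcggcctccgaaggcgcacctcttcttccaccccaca
Sst, chr16:23890845-23891030, minus strand: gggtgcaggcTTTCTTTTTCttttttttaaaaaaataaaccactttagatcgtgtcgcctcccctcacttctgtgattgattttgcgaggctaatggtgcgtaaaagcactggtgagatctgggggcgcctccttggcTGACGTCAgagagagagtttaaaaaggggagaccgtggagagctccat
Counted from the base before the start as -1, the response element began at -34 in Igtp, -64 in Irgm2 and -139 in B2m. The gamma-activated site began at -45 in Igtp, -75 in Irgm2, -90 in Irf1 and -97 in Psmb8. The later RefSeq start of Irf1, at chr11:53770473, had none of the 3 motifs in the 250 bases before it. In Igtp and Irgm2 both motifs stood side by side without overlap in nearly the same surrounding sequence. The Sst stretch holds the cAMP response element at -48 and, in reverse, a response element match at -176. A match is a description of letters only.

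In EAE the ratio of NeuN-positive to NeuN-negative level was -1.56 ± 0.44 for H2-K1, -1.64 ± 0.42 for Psmb9, -1.39 ± 0.4 for Tap1 and -1.07 ± 0.36 for B2m on the log2 scale. The medians of the marker lists were -2.5 for microglia, -1.74 for monocytes, -1.54 for neutrophils and -1.97 for T cells, and that of pan-neuronal genes was 2.16. These 4 genes were thus lower in NeuN-positive than in NeuN-negative nuclei, as were the immune cell markers. The part of these other cells in the rise of antigen presentation genes was not tested.

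Of 953 transcription factor genes tested, 62 were higher in EAE and 23 lower, shares of 6.51 and 2.41% beside the 6.55 and 3.68% of all genes. Without EAE 2, EAE 4 and healthy 3 the counts were 67 and 10, and 91 and 66 without EAE 3 alone. The higher count was 40 without healthy 1 or healthy 4 and 33 without healthy 2, and the lower count left the range of 1.5 times without every single library, from 4 (without EAE 1, EAE 5 or healthy 2) to 66. Whichever single library was left out, 32 rises and 4 falls were still called. The basic leucine zipper family gave 13 rises and 2 falls among 48 genes, the ETS and IRF families 10 rises and 1 fall among 30, and the C2H2 zinc fingers 13 of each among 428. None of 37 nuclear receptor genes was called.

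Interferon and NF-kB factors rose for 14 of 27 genes (51.9%, beside 6.55% of all genes). Of the 30 genes of the list 27 passed the count filter. Any that passed it through EAE alone had to be higher, so this count is a description. Irf1, which drives class I and immunoproteasome genes, was at 7.45, 6.21, 11.3, 7.95 and 7.47 CPM in healthy and 32.3, 53.3, 84.9, 40.2 and 51.6 CPM in EAE libraries (log2 fold change 2.78 ± 0.3, edgeR adjusted p = 6.06e-05). Nlrc5, the transactivator of MHC class I genes, was at 1.55, 1.07, 4.08, 0.9595 and 0.912 CPM in healthy and 47.4, 14.1, 235, 140.4 and 73.2 CPM in EAE libraries (log2 fold change 6.01 ± 0.74, edgeR adjusted p = 0.000163). EAE 3 held the highest and EAE 2 the lowest EAE level of Nlrc5. Irf9, a DNA-binding member of the interferon response, was at 95.9, 83.8, 76.9, 62.4 and 75.9 CPM in healthy and 136, 151, 128, 209.6 and 174 CPM in EAE libraries, a smaller rise than that of Irf1 or Nlrc5 (log2 fold change 1.11 ± 0.21, edgeR adjusted p = 0.00435) from a higher healthy level. Its EAE ratio of NeuN-positive to NeuN-negative nuclei was 0.57 ± 0.34. Irf3, which acts downstream of nucleic acid sensors, fell from 134, 125, 150.5, 167 and 87.6 CPM in healthy to 38.8, 17.4, 84.5, 49.9 and 25.5 CPM in EAE libraries (log2 fold change -1.55 ± 0.36, edgeR adjusted p = 0.0146). Without EAE 2, EAE 4 and healthy 3 the Irf3 change was -1.25 ± 0.38, with an edgeR adjusted p of 0.065.

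Factors of leukocyte lineages were higher for 15 of 32 genes tested and lower for none, beside 6.55% of all genes called higher. Of the 41 genes of the list 32 passed the count filter, and those that passed it through EAE alone had to be higher, so this count is a description. Spi1, the master factor of myeloid cells, was at 0.1499, 0.227, 0.597, 1.58 and 0.456 CPM in healthy and 4.35, 26.5, 14.9, 11.8 and 6.7 CPM in EAE libraries (log2 fold change 4.57 ± 0.7, edgeR adjusted p = 0.000848). Tfec, a macrophage factor, was at or near 0 in all 5 healthy libraries and at 1.498, 6.97, 1.79, 1.297 and 0.723 CPM in EAE. Irf8, needed for monocytes and microglia, rose by 3.65 ± 0.6 and Ikzf1, a lymphoid and myeloid factor, by 3.38 ± 0.59. Runx1 stands in the ventral neuron list as well and is also a factor of blood cells. Runx1 rose by 3.2 ± 0.54, at 5.78, 8.24, 7.57, 8.79 and 5.52 CPM in EAE against 39.2 to 49.5 CPM in EAE NeuN-negative nuclei. It was thus higher in every EAE NeuN-negative library than in any EAE NeuN-positive one. The summed leukocyte markers were also higher in EAE, and their part in these rises was not tested.

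Injury and stress factors were higher for 7 of 42 genes and lower for 1, shares of 16.7 and 2.38% beside 6.55 and 3.68% of all genes. Atf3, a marker of axon injury in sensory and motor neurons that immune cells also induce, was at 1.15, 0.617, 1.59, 0.822 and 0.491 CPM in healthy and 5.64, 8.24, 8.56, 8.07 and 5.32 CPM in EAE libraries (log2 fold change 3.04 ± 0.45, edgeR adjusted p = 0.000639). Every EAE library lay above every healthy one, at a level of at most 8.56 CPM. Cebpb, an inflammatory and injury factor, rose from 4.33 ± 1.59 to 34.3 ± 14.2 CPM (mean ± SD, n = 5), by 3.09 ± 0.35 on the log2 scale. Stat3, activated by cytokines of the interleukin-6 family, was at 62.5, 59.2, 37.2, 44.96 and 70.2 CPM in healthy and 124, 97.5, 137, 97.4 and 142 CPM in EAE libraries (log2 fold change 1.21 ± 0.21, edgeR adjusted p = 0.00236). Atf4, the effector of the integrated stress response, was at 151, 150.4, 129, 145 and 139.7 CPM in healthy and 328, 361, 170.5, 277 and 394 CPM in EAE (log2 fold change 1.19 ± 0.23, edgeR adjusted p = 0.00554), with EAE 3 nearest to the healthy range. The EAE ratio of NeuN-positive to NeuN-negative nuclei was 0.22 ± 0.34 for Atf4, -1.44 ± 0.48 for Cebpb and -1.88 ± 0.39 for Atf3. Atf3 also rose in NeuN-negative nuclei, by 3.16 ± 0.41 on the log2 scale. Hsf1, the heat shock factor, fell by 1.15 on the log2 scale, a call that was lost without any one of 7 libraries (all but EAE 3, healthy 3 and healthy 5), with an edgeR adjusted p of up to 0.0674.

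Activity-dependent factors rose for 5 of 32 genes (Fosl2, Egr2, Klf2, Ier2 and Junb), 15.6% beside 6.55% of all genes. Without the 3 libraries 2 of 33 were higher, a share below the 7.21% of all genes. Fosl2, an AP-1 subunit, was at 9.49, 10.1, 5.97, 3.29 and 10.9 CPM in healthy and 19.1, 30.8, 18.7, 16.4 and 18.8 CPM in EAE libraries (log2 fold change 1.48 ± 0.34, edgeR adjusted p = 0.0154). It was the one member of the list called whichever single library was left out, but without the 3 libraries its change was 1.27 ± 0.36 (edgeR adjusted p = 0.0558). Egr2, an early growth response factor, kept its call without them (2.05 ± 0.43, edgeR adjusted p = 0.0165). Among glial factors, Sox9 rose by 1.72 ± 0.39, from 4.67 ± 1.83 to 14.4 ± 5.84 CPM.

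Factors of neuronal identity changed in few cases. Of 54 dorsal factors tested, 1 was higher and 2 lower, of 45 ventral and motor neuron factors 1 higher (Runx1) and none lower, and of 33 Hox genes 1 each way. Each of these shares was at most 3.7%, beside 6.55% of all genes higher and 3.68% lower. Lmx1b (ENSMUSG00000038765, chr2:33560965-33640511), which specifies excitatory dorsal horn neurons, was at 57.6, 56.8, 52.2, 42.1 and 44.3 CPM in healthy and 16.7, 9.99, 33.8, 16.6 and 14.6 CPM in EAE libraries (log2 fold change -1.39 ± 0.29, edgeR adjusted p = 0.00755). The groups did not overlap, and EAE 3 lay nearest to the healthy libraries. Without EAE 2, EAE 4 and healthy 3 its change was -1.09 ± 0.3 (edgeR adjusted p = 0.0515). Ebf3, another dorsal factor, fell by 1.04 on the log2 scale, with EAE 3 at 95.1 CPM inside the healthy range, and its call was lost without any one of 8 libraries (all but EAE 3 and healthy 3). Hoxc8, a factor of the brachial and thoracic cord, was at 101, 92.8, 155, 149.7 and 69.1 CPM in healthy and 269, 377, 128, 361 and 431 CPM in EAE libraries (log2 fold change 1.55 ± 0.34, edgeR adjusted p = 0.0113), with EAE 3 the one library inside the healthy range. Hoxb3, of the hindbrain and cervical cord, fell by 1.78 and lost its call without any one of 7 libraries (all but EAE 3, EAE 4 and healthy 3). Zfp335 and Zfp612, zinc finger genes, were the other falls still called whichever library was left out. Zfp612 was at 15.99, 19.3, 16.5, 14.1 and 41.1 CPM in healthy and 3.85, 1.74, 9.31, 3.46 and 4.99 CPM in EAE libraries.

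**Figure D3:**
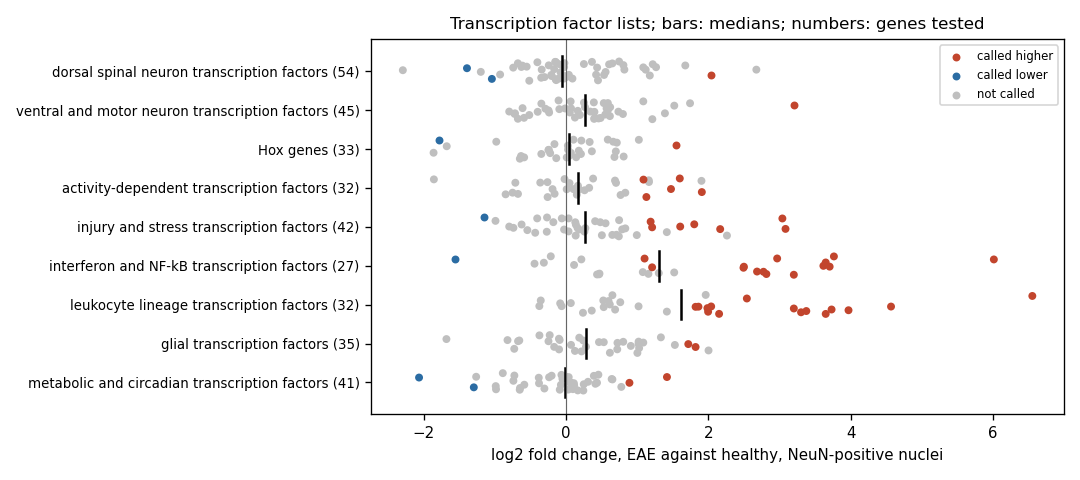
Log2 fold change (EAE against healthy) of each gene tested in 9 transcription factor lists, with genes called higher in red, called lower in blue and not called in grey, and list medians as black bars. Rises crowd the interferon and leukocyte lists, while the dorsal, ventral and Hox lists have medians between -0.05 and 0.27.

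The 17 neuronal lists held 650 genes tested, of which 8 were higher in EAE (1.23%) and 56 lower (8.62%), beside the 6.55 and 3.68% of all genes. Their median log2 fold change was -0.3, against -0.03 over all genes. Without EAE 2, EAE 4 and healthy 3, 32 were lower and 10 higher, and with the mitochondrially encoded share as a covariate 25 were lower and 1 higher. The lower count was 26 without EAE 1, 94 without EAE 3, 23 without EAE 5, 34 without healthy 1, 24 without healthy 2 and 33 without healthy 4. The higher count ran from 1 without healthy 1, healthy 2 or healthy 4 to 34 without EAE 3, and was 26 without healthy 3 and 2 to 5 without any of the other 5. Of the 56 falls 21 were called whichever single library was left out, and of the 8 rises none was. The EAE and healthy libraries did not overlap for 44 of the 56, beside 327 of the 613 genes called lower and 1649 of the 16675 tested. Genes already called are more often separated, so this count is a description. EAE 3 was the highest EAE library for 42 of the 56. Median transcript GC content was 53.7% for these 56 and 50.1% for all 650, and after GC trends were removed 51 were lower. The part of the mitochondrially encoded share and of single libraries in these falls was not tested beyond these counts.

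**Figure D4:**
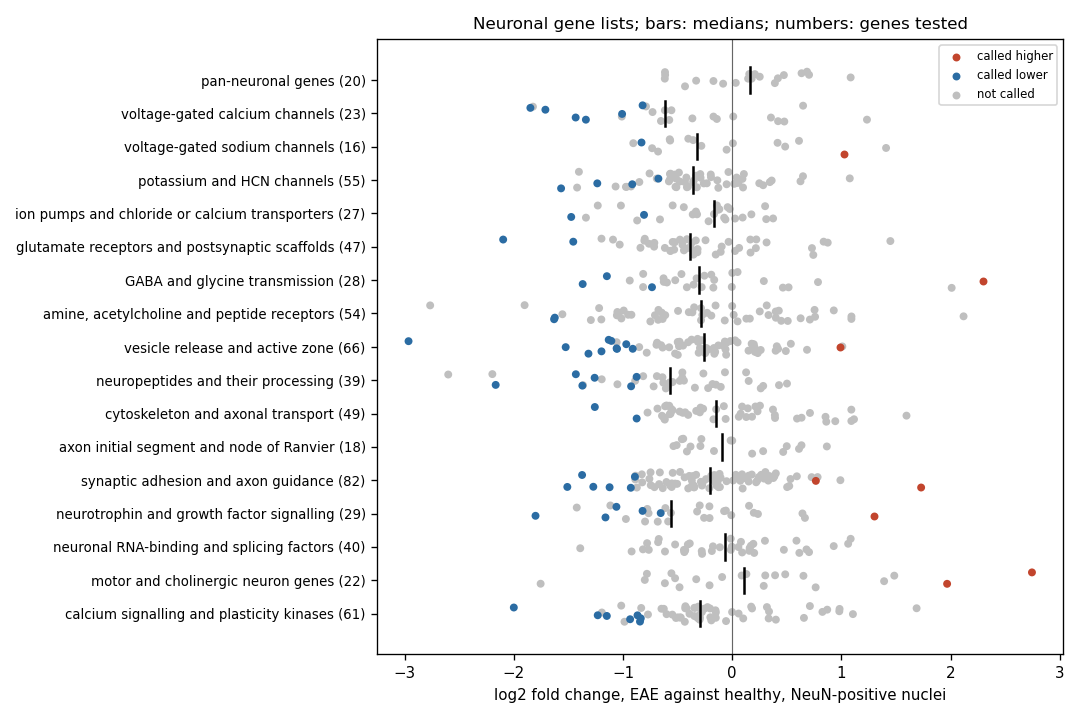
Log2 fold change (EAE against healthy) of each gene tested in 17 neuronal lists, with genes called higher in red, called lower in blue and not called in grey, and list medians as black bars. Calls are mostly falls, with the largest shares in calcium channels, growth factor signalling, neuropeptides and vesicle release, and the pan-neuronal, node and RNA-binding lists have none.

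Voltage-gated calcium channel genes were lower for 6 of 23 tested (26.1%, beside 3.68% of all genes) and higher for none, at a median of -0.62. Without the 3 libraries 3 were lower, where 1.83% of all genes were. Cacna1h (ENSMUSG00000024112, chr17:25374285-25433783), which forms a low-threshold T-type channel, was at 224, 235, 203, 224 and 181 CPM in healthy libraries 1 to 5 and 49.7, 32.97, 129, 51.2 and 47.95 CPM in EAE libraries 1 to 5. The groups did not overlap, and EAE 3 lay between the other EAE libraries and the healthy ones. Its log2 fold change was -1.71 ± 0.31 (edgeR adjusted p = 0.00286), and it was called whichever single library was left out. Cacnb3, an auxiliary beta subunit, was at 208, 216, 302, 291 and 121 CPM in healthy and 61.2, 45.97, 149, 91.2 and 55.3 CPM in EAE (log2 fold change -1.43 ± 0.34, edgeR adjusted p = 0.0171). This call was lost without EAE 1 or without EAE 5, where the edgeR adjusted p reached 0.0528. The other falls were Cacna1d, an L-type channel (-1.01 ± 0.28), and the auxiliary gamma subunits Cacng5 (-0.82 ± 0.24), Cacng7 (-1.85 ± 0.45) and Cacng8 (-1.34 ± 0.32), each lost without at least 1 library (2 omissions for Cacng8, 4 for Cacng7, 8 for Cacna1d and Cacng5).

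Potassium channel genes were lower for 4 of 55 (7.27%, beside 3.68% of all genes), against 0 without EAE 2, EAE 4 and healthy 3. Kcnd3, an A-type channel, was at 53.2, 53.7, 59.8, 57.6 and 60.04 CPM in healthy and 32.7, 19.02, 32.4, 22.5 and 36.5 CPM in EAE libraries (log2 fold change -0.92 ± 0.21, edgeR adjusted p = 0.0155). Kcnh3, of the ether-a-go-go family, was at 14.7, 11.6, 20.8, 14.5 and 7.76 CPM in healthy and 4.64, 5.39, 6.72, 2.16 and 3.22 CPM in EAE (log2 fold change -1.57 ± 0.37, edgeR adjusted p = 0.0182). Neither gene's groups overlapped, and without the 3 libraries their edgeR adjusted p was 0.0573 and 0.054. Of 16 sodium channel genes, the auxiliary subunit Scn3b fell by 0.84 on the log2 scale, a call lost without healthy 2 (edgeR adjusted p = 0.0506). The nociceptor channel gene Scn9a rose by 1.03 ± 0.29, a call lost without any one of 8 libraries (all but EAE 3 and healthy 3). Pumps and ion transporters were lower for 2 of 27 genes (7.41%), and none of 18 genes of the axon initial segment and node was called.

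Vesicle release held the most falls of the 17 lists, 10 of 66 genes tested (15.2%, beside 3.68% of all genes). The list had 1 rise, and 5 falls without the 3 libraries. Doc2a (ENSMUSG00000052301, chr7:126847416-126852705) was at 8.89, 9.72, 5.47, 5.41 and 14.6 CPM in healthy and 0.642, 1.43, 1.69, 0.721 and 0.788 CPM in EAE libraries (log2 fold change -2.96 ± 0.45, edgeR adjusted p = 0.000775). All EAE libraries lay below all healthy ones and within the 0.368 to 4.91 CPM of EAE NeuN-negative nuclei. Syt5, a calcium sensor of the synaptotagmin family, was at 72.9, 70.2, 67.4, 64.7 and 63.97 CPM in healthy and 20.3, 18.1, 39.7, 33.9 and 34.8 CPM in EAE (log2 fold change -1.13 ± 0.24, edgeR adjusted p = 0.00845). Syngr3, a synaptic vesicle protein, was at 183, 191, 149.9, 162 and 148 CPM in healthy and 101, 38.4, 94.2, 51.3 and 84.5 CPM in EAE (log2 fold change -1.11 ± 0.25, edgeR adjusted p = 0.0128). In both genes EAE 2 was the lowest library. Unc13a, which primes vesicles for release, and Rimbp2, which ties calcium channels to the active zone, fell with log2 fold changes of -1.32 and -1.53. These 5 were called whichever single library was left out, and Stx1a, Syn2, Ppfia2, Rims2 and Amph were not.

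**Figure D5:**
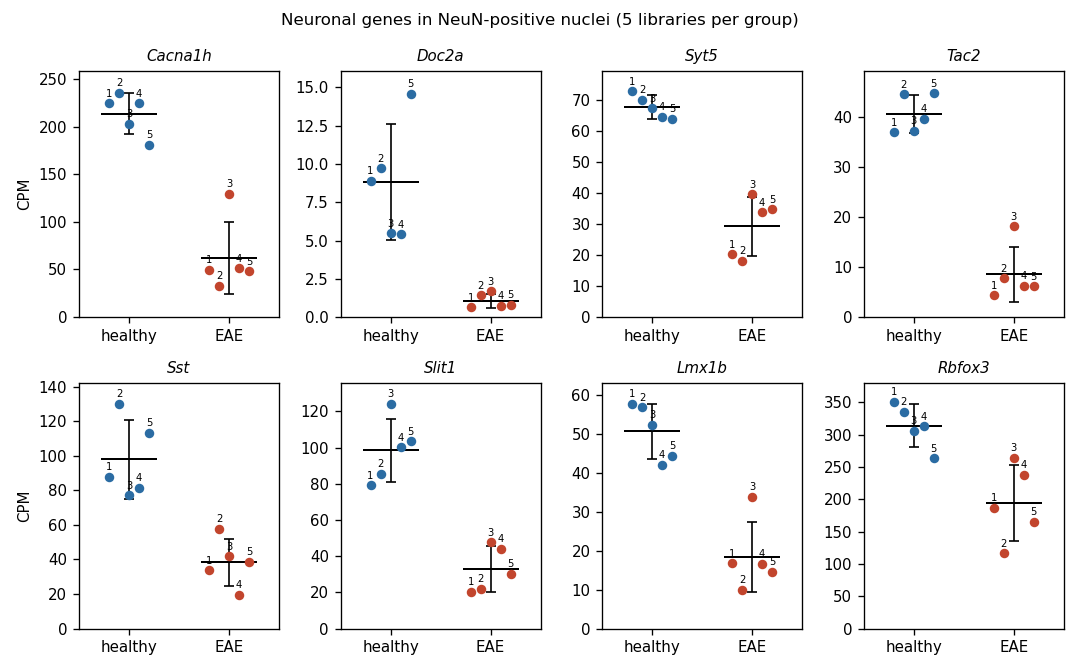
CPM of 8 neuronal genes in each healthy (blue) and EAE (red) NeuN-positive library, numbered by replicate, with the mean (black line) and SD (error bar) of 5 libraries. EAE 3 is the highest EAE library for 7 of the 8 genes, and only for Rbfox3 does an EAE library reach the healthy range.

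Among transmitter systems, neuropeptide genes held the largest share of falls. Of 39 tested 6 were lower (15.4%, beside 3.68% of all genes) and none higher, with 5 lower without the 3 libraries, and the list's median was -0.57. Tac2 (chr10:127724478-127731768), which encodes neurokinin B of dorsal horn neurons, was at 36.98, 44.6, 37.3, 39.7 and 44.8 CPM in healthy and 4.35, 7.77, 18.2, 6.198 and 6.17 CPM in EAE libraries (log2 fold change -2.17 ± 0.35, edgeR adjusted p = 0.0012). Sst (chr16:23889573-23890958), which encodes somatostatin of excitatory dorsal horn interneurons, was at 87.8, 130.0, 76.99, 81.6 and 113 CPM in healthy and 33.7, 57.5, 41.8, 19.6 and 38.6 CPM in EAE (log2 fold change -1.26 ± 0.28, edgeR adjusted p = 0.0115). Neither gene's groups overlapped, and both were called whichever single library was left out. Pnoc, the precursor of nociceptin, fell by 1.43 on the log2 scale, a call lost without EAE 1 or without healthy 2 (edgeR adjusted p up to 0.0673). The cAMP response element printed for Sst was found before 6 of 29 matched genes of this list (20.7%), against 1.77% of all genes, 2.9% of the genes tested and 2.93% of the genes called lower. Tacr3, the receptor of neurokinin B, was at 4.297, 4.39, 2.79, 4.18 and 8.04 CPM in healthy and 1.64, 0.317, 1.59, 1.297 and 2.23 CPM in EAE, a log2 fold change of -1.63 ± 0.49 whose call was lost without any one of 8 libraries (all but EAE 2 and healthy 3).

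For inhibitory transmission, 3 of 28 genes were lower (10.7%, beside 3.68% of all genes) and 1 higher. Gad1, which makes GABA, and Slc32a1, its vesicular transporter, fell with log2 fold changes of -0.73 and -1.15, and these calls were lost without any one of 8 and 7 libraries, for Gad1 all but EAE 3 and healthy 3 and for Slc32a1 all but EAE 1, EAE 3 and healthy 3. In excitatory transmission 2 of 47 genes were lower, and that share (4.26%) lies near the 3.68% of all genes. Shank1, a postsynaptic scaffold, was at 136, 236, 253, 171 and 382 CPM in healthy and 41.3, 45.2, 92.3, 159 and 66.7 CPM in EAE, with EAE 4 inside the healthy range (log2 fold change -1.46 ± 0.38, edgeR adjusted p = 0.0279), and was lost without EAE 1, EAE 2, EAE 5, healthy 2 or healthy 5. Of 54 amine, acetylcholine and peptide receptors 2 were lower, Tacr3 and Ntsr2, again near that background (3.7%). Ntsr2, a neurotensin receptor that also marks astrocytes, had a log2 fold change of -1.63 here and -3.79 ± 0.57 in NeuN-negative nuclei, and its call here was lost without EAE 5 or healthy 4 (edgeR adjusted p up to 0.0559).

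Adhesion and axon guidance genes were lower for 6 of 82 and higher for 2, shares of 7.32 and 2.44% beside 3.68 and 6.55% of all genes. Slit1 (chr19:41600257-41743665), a repulsive guidance ligand, was at 79.2, 85.5, 124, 100.2 and 103 CPM in healthy and 20.4, 21.9, 47.7, 43.97 and 30.3 CPM in EAE libraries (log2 fold change -1.51 ± 0.27, edgeR adjusted p = 0.00291). Efnb3, a guidance ephrin, was at 92.9, 84.1, 94.6, 104 and 89.03 CPM in healthy and 36.8, 28.2, 59.7, 34.7 and 43.1 CPM in EAE (log2 fold change -1.12 ± 0.21, edgeR adjusted p = 0.00439). Both genes separated the groups. In NeuN-negative nuclei Efnb3 was at 776 to 1479 CPM in healthy libraries, above every NeuN-positive library, and at 52.3 to 431 CPM in EAE. The synaptic adhesion molecule Cadm3, the postsynaptic adhesion molecule Lrfn1 and the cadherin Cdh18 fell with log2 fold changes of -0.93, -1.27 and -1.38. All 5 were called whichever single library was left out. Genes of neurotrophin and growth factor signalling were lower for 5 of 29 (17.2%, beside 3.68% of all genes) and higher for 1. Without the 3 libraries 1 was lower. Ntrk3, the neurotrophin-3 receptor, was at 35.8, 46.2, 24.8, 26.6 and 91.1 CPM in healthy and 7.14, 7.13, 21.8, 12.97 and 11.4 CPM in EAE (log2 fold change -1.8 ± 0.4, edgeR adjusted p = 0.0118), and without the 3 libraries its edgeR adjusted p was 0.0519. Gfra2, the neurturin receptor, fell by 1.16, a call lost without EAE 5, healthy 1, healthy 2 or healthy 4 (edgeR adjusted p up to 0.0676).

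Calcium signalling genes were lower for 7 of 61 tested (11.5%, beside 3.68% of all genes) and higher for none, with 5 lower without the 3 libraries. Hpca and Hpcal4, neuronal calcium sensors, fell with log2 fold changes of -1.23 and -1.15. Hpcal4 was at 34.7, 42.7, 61.1, 47.8 and 38.8 CPM in healthy and 19.8, 16.8, 24.2, 13.8 and 21.7 CPM in EAE libraries, with no overlap. Gnb5, a G protein beta subunit of neurons, was at 12.3, 14.1, 6.66, 7.81 and 20.6 CPM in healthy and 1.93, 1.58, 5.77, 2.31 and 2.69 CPM in EAE (log2 fold change -2.0 ± 0.42, edgeR adjusted p = 0.00869). In transport, the kinesin gene Kif3c was at 48.1, 55.8, 51.1, 56.5 and 69.1 CPM in healthy and 16.8, 20.4, 34.05, 20.8 and 18.7 CPM in EAE (log2 fold change -1.26 ± 0.23, edgeR adjusted p = 0.00342), 1 of 2 falls among 49 genes (4.08%, near the background). In NeuN-negative nuclei Kif3c was at 76.1 to 110 CPM in healthy libraries, above every NeuN-positive library, and at 7.42 to 34.05 CPM in EAE. None of 40 RNA-binding and splicing factor genes was called.

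The rises in neuronal lists were Glra3, Igf1, Spp1, Aldh1a2, Unc13c, Nrp2, Tenm2 and Scn9a. Spp1, osteopontin of alpha motor neurons and of activated macrophages, was at 12.1, 13.97, 3.08, 10.1 and 27.5 CPM in healthy and 41.9, 239, 28.7, 39.9 and 57.9 CPM in EAE libraries (log2 fold change 2.75 ± 0.65, edgeR adjusted p = 0.0173), with EAE 2 far above the rest, and 1.53 ± 0.38 (edgeR adjusted p = 0.0349) without EAE 2, EAE 4 and healthy 3. Its call was lost without healthy 4 (edgeR adjusted p = 0.0519). The monocyte sum was also highest in EAE 2, and its part in this rise was not tested. Igf1, a growth factor of neurons and myeloid cells, rose by 1.3 ± 0.32 and by 1.41 ± 0.33 in NeuN-negative nuclei, and its call in NeuN-positive nuclei was lost without healthy 1 or healthy 2 (edgeR adjusted p up to 0.0648). The other 6 calls were each lost without 6 to 8 of the 10 libraries, healthy 1, healthy 2, healthy 4 and EAE 4 in every case. Of 22 motor and cholinergic genes none was lower.

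The EAE effect was compared between the sorts in a fit on all 20 libraries, where 524 of 20444 genes differed (2.56%), 356 with the higher and 168 with the lower effect in NeuN-positive nuclei. Each replicate number was left out of both sorts in turn, and every omission moved at least 1 count by over 1.5 times. The counts higher and lower were 172 and 68, 199 and 169, 664 and 294, 43 and 46, and 30 and 43 without EAE 1 to 5. They were 8 and 2, 13 and 7, 182 and 241, 61 and 18, and 147 and 65 without healthy 1 to 5. With DESeq2 size factors 236 genes differed in each direction, and the median difference over all genes was -0.11, against 0.15 with TMM. With the replicate number as a block, 1992 genes had the higher and 500 the lower effect in NeuN-positive nuclei. No label says that a number pairs the sorts, though each library correlated best with its own number across sorts. The differences named next are from the fit without this block. Among neuronal genes that fell, Kcnh3 differed by -3.62 ± 0.79 on the log2 scale (edgeR adjusted p = 0.0185), with a change of 1.98 ± 0.58 in NeuN-negative nuclei. Kcnh3 levels in that sort were low and overlapped, at 0.593 to 1.94 CPM in healthy and 0.728 to 8.39 CPM in EAE libraries. Slit1 differed by -2.37 ± 0.65, Lmx1b by -1.84 ± 0.5, Tacr3 by -3.54 ± 0.98, Cacna1d by -1.58 ± 0.42 and Cacng5 by -2.29 ± 0.61, with edgeR adjusted p between 0.0393 and 0.0480. Tmem132a, one of the 10 largest falls but in none of the neuronal lists, differed by -2.49 ± 0.63 (edgeR adjusted p = 0.0342). Tacr3 changed by 1.82 ± 0.69 in NeuN-negative nuclei, from healthy levels of 0.203 to 3.61 CPM. In EAE its log2 ratio of NeuN-positive to NeuN-negative level was -2.04 ± 0.7. Kcnh3 lost its difference without EAE 4, healthy 1 or healthy 2, and the other 6 without 7 or 8 of the 10 libraries, in each case including EAE 4, EAE 5, healthy 1, healthy 2 and healthy 4. Some genes that fell here whichever library was left out were also lower in NeuN-negative nuclei, with log2 fold changes of -2.75 ± 0.42 for Efnb3, -2.42 ± 0.33 for Kif3c, -1.49 ± 0.5 for Ntrk3 and -0.97 ± 0.33 for Unc13a. For Cacna1h the difference was -0.91 ± 0.48 and for Sst -0.3 ± 0.65, and neither passed the test (edgeR adjusted p = 0.318 and 0.852). With the block Cacna1h passed (edgeR adjusted p = 0.039) and Sst did not (0.521).

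Metabolic and circadian factors were higher for 2 of 41 genes (Tef and Npas3) and lower for 2 (Dbp and Mlx). Each share was 4.88%, beside 6.55% of all genes higher and 3.68% lower. Dbp changed by -2.06 ± 0.59 and Mlx by -1.29 ± 0.36, calls lost without any one of 6 and 7 libraries. Tef and Npas3 had effects of opposite sign in the sorts. Tef, a circadian output factor, was at 586, 511, 771, 623 and 402 CPM in healthy and 1092, 835, 649, 1376 and 1138 CPM in EAE NeuN-positive libraries (log2 fold change 0.89 ± 0.27, edgeR adjusted p = 0.0488), and changed by -1.08 ± 0.35 in NeuN-negative nuclei. Npas3, a basic helix-loop-helix factor of the PAS family, changed by 1.42 ± 0.41 and by -0.94 ± 0.36. Their differences were 1.9 ± 0.5 and 2.28 ± 0.52 (edgeR adjusted p = 0.0393 and 0.0199), lost without any one of 8 libraries for Tef (all but EAE 2 and EAE 3) and of 6 for Npas3 (all but EAE 1, EAE 3, healthy 3 and healthy 5). Their rises in NeuN-positive nuclei were lost without any one of 8 libraries (all but EAE 3 and healthy 3). Of 19 oligodendrocyte markers tested for the difference, 8 had the higher EAE effect in NeuN-positive nuclei, beside 356 of all 20444 genes. Of 15 microglia markers tested for the difference, 4 rose more in the NeuN-positive sort. These were Csf1r, the growth factor receptor of microglia, by 2.46 ± 0.62, Trem2, their lipid receptor, by 2.74 ± 0.71, C1qc by 2.11 ± 0.51 and Tmem119 by 2.01 ± 0.48. P2ry12 was among those that did not pass (2.06 ± 0.66, edgeR adjusted p = 0.0844), but it passed with the replicate number as a block (edgeR adjusted p = 0.0383). The EAE levels were still lower there, at log2 ratios to the NeuN-negative sort of -2.5 ± 0.45 for Csf1r and -2.55 ± 0.35 for Tmem119. The 4 called differences were lost without any one of 7 libraries (EAE 2, EAE 4, EAE 5, healthy 1, healthy 2, healthy 4 and healthy 5) and for Csf1r also without healthy 3. The antigen presentation genes H2-K1 (1.15 ± 0.62) and Psmb9 (1.1 ± 0.61) did not pass the test of the difference (edgeR adjusted p = 0.328 and 0.343). With the replicate number as a block neither passed (edgeR adjusted p = 0.0574 and 0.13).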

How the data were processed

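RNA of spinal cord nuclei, sorted on NeuN, was sequenced after poly(A) enrichment with TruSeq kits, per the labels' protocols. The authors deposited raw read counts per Ensembl gene, 1 column per library, for 43629 genes and 20 libraries. The submitters' processing notes name STAR 2.4, DESeq2, GRCm39 and mm10 with no role. The sources used here do not give the read counter, the annotation release and whether strand was used. Libraries were grouped by title.

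Genes passing edgeR's filterByExpr were fitted on the 10 NeuN-positive libraries with TMM scaling and edgeR's robust quasi-likelihood test (edgeR 4.0.16, R 4.3.3), with Benjamini-Hochberg adjustment over all genes tested and a threshold of 0.05. The SE of a log2 fold change is its size divided by the square root of F. CPM were scaled by TMM over the 20 libraries. The difference between the sorts was the interaction in a fit on all 20. Summed markers were compared by exact permutation tests over libraries. Alternatives used limma 3.58.1, DESeq2 1.42.0 and other filters, scalings, covariates and library sets. The scripts were tested on simulated data. The members and gene lists were chosen with earlier results of these data known. Named genes were the 4 markers Rbfox3, Psmb9, H2-K1 and Cacna1h, the 10 largest rises and falls at a mean log2 CPM of at least 2 without overlap, the leading called transcription factors, up to 3 genes called each way per list by smallest p, and the defining markers. Other genes named were chosen after their values were seen, from the same lists. Depth limits genes below about 1 CPM, where the smallest library holds few reads. Same-numbered NeuN-positive libraries of the 2 groups did not deviate together, so they were not treated as pairs. Across sorts each library correlated best with its own number. No label ties a number to a mouse, so the main fit on all 20 held no block, and blocked results are given beside it. Results of some genes are not reported here.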

Additional observations from a re-analysis of the deposited data

Results flagged for a closer look

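In a group of 5 libraries, one whose gap to its nearest neighbour exceeds 0.71 of the group's range stands apart, which chance gives in about 1 of 20 groups. Among library measures, healthy 3 stood apart for the mitochondrially encoded share (3.003% of counts), the summed oligodendrocyte markers (44953 CPM) and the summed oligodendrocyte precursor markers (691 CPM). Healthy 5 stood apart for the B cell sum (231 CPM) and EAE 2 for the ribosomal protein share (0.479% of counts).

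EAE 3 stood apart as the high EAE library for H2-K1 (913 CPM), Cacna1h (129 CPM), Cacna1d (77.1 CPM), Lmx1b (33.8 CPM), Kif3c (34.05 CPM), Tac2 (18.2 CPM), Zfp335 (12.4 CPM) and Gnb5 (5.77 CPM). EAE 2 did so for B2m (664 CPM), Spp1 (239 CPM), Fosl2 (30.8 CPM) and Tfec (6.97 CPM). Among healthy libraries, healthy 4 was high for Slc7a10 (32.1 CPM), Lyz2 (15.5 CPM), Cebpb (7.13 CPM) and Psmb8 (4.73 CPM). Healthy 3 was high for Nlrc5 (4.08 CPM) and Cd3e (0.895 CPM), and healthy 5 for Rimbp2 (46.2 CPM), Zfp612 (41.1 CPM) and Hoxb3 (19.3 CPM).

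The EAE effect differed between NeuN-positive and NeuN-negative nuclei for 14 of the genes described (interaction term in edgeR, adjusted p under 0.05). The effect was higher in NeuN-positive nuclei for Opalin (3.22 ± 0.56), Trem2 (2.74 ± 0.71), Csf1r (2.46 ± 0.62), Npas3 (2.28 ± 0.52), C1qc (2.11 ± 0.51), Tmem119 (2.01 ± 0.48) and Tef (1.9 ± 0.5) on the log2 scale. It was lower for Kcnh3 (-3.62 ± 0.79), Tacr3 (-3.54 ± 0.98), Tmem132a (-2.49 ± 0.63), Slit1 (-2.37 ± 0.65), Cacng5 (-2.29 ± 0.61), Lmx1b (-1.84 ± 0.5) and Cacna1d (-1.58 ± 0.42). Opalin, an oligodendrocyte membrane gene, kept its difference whichever replicate number of a condition was left out, at an edgeR adjusted p of 0.00182 to 0.049. It changed by -3.73 ± 0.42 in NeuN-negative and -0.41 ± 0.42 in NeuN-positive nuclei. The other 13 lost the difference without 3 to 8 of the 10 replicate numbers.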

How the results depend on the processing

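Against 1092 genes higher and 613 lower, DESeq2's Wald test gave 1746 and 1251, limma voom with quality weights 3820 and 3884, and the mitochondrially encoded share as a covariate 528 and 166, while leaving out EAE 2, EAE 4 and healthy 3 gave 317 lower. For the 62 and 23 transcription factor genes, these settings gave 102 and 53, 225 and 186, and 27 and 3, with 10 lower without the 3 libraries and 36 lower with no count filter. For the 8 and 56 neuronal genes they gave 27 and 103, 101 and 222, and 1 and 25, with 32 lower without the 3 libraries, 4 higher in the fit on 20 libraries and 3 higher with no count filter. For the difference between the sorts (356 and 168), DESeq2 size factors gave 236 positive, limma voom 3059 and 1867, and leaving out the 3 libraries 362 negative. Of 6 library measures past adjustment, 0 remained without the 3 libraries, where 3 against 4 libraries allow an exact permutation p of 0.0286 at the lowest, 0.0714 after adjustment. Leaving out single libraries gave 677 to 1721 genes higher and 178 to 1462 lower, 33 to 91 and 4 to 66 transcription factors, 1 to 34 and 23 to 94 neuronal genes, and 8 to 664 and 2 to 294 differences between sorts. With the replicate number as a block, 738 genes were higher and 411 lower, with 39 and 13 transcription factors, 3 neuronal genes higher, and 1992 positive and 500 negative differences between sorts. The 14 described genes that differed between the sorts had edgeR adjusted p of 0.00173 to 0.0303 with that block. Of those described as not passing, Cacna1h (0.039) and P2ry12 (0.0383) passed with it, and H2-K1 (0.0574), Psmb9 (0.13) and Sst (0.521) did not. Same-numbered EAE and healthy libraries correlated at r between -0.33 and 0.24. Across sorts, same-numbered libraries correlated at 0.08 to 0.32 in EAE and 0.33 to 0.75 in healthy, each best with its own number, a hint from the data and not the design. Of 75 genes described and called, 36 were called in all 20 alternatives, 1 (Tfec) in the 19 that tested it, 26 lost the call in 1 to 5 and 12 in more, and none reversed. The cause of these changes was not tested. Removing GC trends was chosen after seeing the data. EAE 2 and EAE 4, with 7072200 and 8187482 counts, limit what can be seen of genes under 1 CPM.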
